A study of Rattus norvegicus with 12 samples.

Results

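Zinc transporters are the genes described here: 10 of the 22442 gene records of the data, namely the importers Slc39a1, Slc39a3, Slc39a6, Slc39a7, Slc39a8, Slc39a10 and Slc39a14 and the exporters Slc30a1, Slc30a5 and Slc30a7. They were chosen by gene name, with 1 record a name, the one of highest mean FPKM, a read density scaled for transcript length and library size. Slc39a3 was chosen because it was higher under TCDCA, so its levels are a description without a test, and the question was whether other zinc transporters were higher with it. Poly(A) RNA was sequenced from fibroblast-like synoviocytes (FLS), the fibroblasts of the joint lining, cultured from male Sprague Dawley rats with adjuvant arthritis after an injection of complete Freund's adjuvant. FCA denotes cells kept in DMEM. The bile acid taurochenodeoxycholic acid (TCDCA) was given for 12 h at 10 µM (AT10), 1 µM (AT1) or 0.1 µM (AT01), and each of the 4 groups had 3 libraries. All groups shared the arthritis and the culture to the third passage, and no FLS of healthy rats are among the 12 libraries. The methods call replicates 1, 2 and 3 sets of repeated studies, without saying whether a set was a separate rat, culture or day, so p-values measure the spread between these libraries, which may be technical.

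Zinc crosses membranes through a pair of protein families with opposite directions. ZIP proteins, encoded by Slc39a genes, bring zinc into the cytosol from outside the cell or from organelles. ZnT proteins, encoded by Slc30a genes, carry it out of the cytosol into the medium, the Golgi or vesicles. Metallothioneins bind free zinc in the cytosol, and the zinc sensor MTF1 switches on metallothionein genes and Slc30a1 when zinc is high. In joint tissue, zinc is needed by the matrix metalloproteinases, whose active site holds a zinc ion.

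Summed FPKM lay between 284210 and 309696 over the libraries, and between 11471 and 11679 records reached 1 FPKM. The table holds no read counts, so the depth behind a single value is unknown. The FLS markers Thy1 (mean of 138 FPKM), Pdgfrb (139 FPKM) and Cdh11 (31.0 FPKM) were high, and all 8 of the 10 listed FLS markers that were analysed here had a mean of at least 1 FPKM. The endothelial markers Cdh5, Kdr, Vwf and Tek each had a mean below 0.1 FPKM. Of the macrophage markers, Cd14 had 13.8, Cd68 2.13, Csf1r 0.157 and Adgre1 0.00667 FPKM on average, and their sum ran from 6.48 to 21.9 FPKM in FCA and from 5.71 to 21.4 FPKM over the TCDCA groups. The smooth muscle markers Cnn1, Des and Myh11 averaged 21.3, 13.0 and 4.18 FPKM. Of the adipocyte markers, Fabp4 averaged 33.1 FPKM, but Adipoq only 1.87 and Plin1 1.62 FPKM. Of the cartilage markers, Acan averaged 4.31 and Sox9 1.32 FPKM, while Col2a1 was near 0 (0.0025 FPKM). Whether such cells were present, and their part in the values below, was not tested. In bulk RNA, fewer cells of a type and less RNA per cell cannot be told apart.

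Slc39a3 encodes ZIP3, an importer of the cell surface. Its record had 2.80, 3.06 and 2.47 FPKM in the 3 FCA libraries. In AT1 the values were 10.06, 10.12 and 9.94 FPKM, whereas AT10 had 10.06, 3.12 and 10.3 FPKM and AT01 had 9.24, 2.75 and 7.91 FPKM. Thus 7 of the 9 TCDCA libraries, 2 of AT10, 3 of AT1 and 2 of AT01, lay between 7.91 and 10.3 FPKM, and the other 5 libraries, all of FCA and replicate 2 of AT10 and AT01, lay between 2.47 and 3.12 FPKM. No library lay in the interval between these levels, and the mean of the upper level was 3.4 times that of the lower. The log2 difference from FCA, on log2(FPKM + 1), was 1.09 for AT10, 1.55 for AT1 and 0.89 for AT01, and these differences share the FCA libraries. With each library left out in turn, the AT10 value ran from 0.84 (without AT10 replicate 3) to 1.57 (without AT10 replicate 2), and the AT01 value from 0.62 (without AT01 replicate 1) to 1.34 (without AT01 replicate 2).

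Slc39a3 was given no test, and no other zinc transporter passed one. Of the other 9, 8 reached a mean of 1 FPKM over the 12 libraries and were tested with limma among 11611 records. None had an adjusted p under 0.05 in AT10, AT1 or AT01 against FCA or in all TCDCA libraries together against FCA. Over all records, 0.172%, 0.0947%, 0.0947% and 0.0258% were called in these comparisons, which amounts to less than 1 of 8 genes. At an unadjusted p under 0.05, 0, 1, 0 and 1 of the 8 passed, where 11.9%, 11%, 6.6% and 12% of all records did. The F test that Ballgown uses gave an adjusted p under 0.05 for 0 of the 8 in each comparison, and an unadjusted p under 0.05 for 1 in AT10 (Slc39a6, adjusted p = 0.327) and 0 in the others, against 10.8%, 6.86%, 5.6% and 8.74% of all records. The study's own threshold, which asks for a log2 change of more than 1 in size and an unadjusted p under 0.05, was met by 0 of the 8 in each comparison, and by 0.706%, 0.62%, 0.758% and 0.491% of all records.

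In all TCDCA libraries against FCA, 4 of the 8 had a positive and 4 a negative log2 difference. Their median was -0.01, and that of all records was 0.003. The 95% interval of the difference lay within 1 log2 unit of 0 for each of the 8. Its bounds ran from -0.73 at the lowest to 0.86 at the highest. The value of Slc39a3 was 1.18, but the gene was chosen for its levels, so no contrast with these intervals is drawn. The added 1 of log2(FPKM + 1) understates changes of low genes such as Slc39a8 and Slc39a10. For single doses the interval lay within 1 log2 unit of 0 for 5 (AT10), 7 (AT1) and 6 (AT01) of the 8. The corresponding medians were 0.00, 0.09 and -0.08 log2 units.

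**Figure D1:**
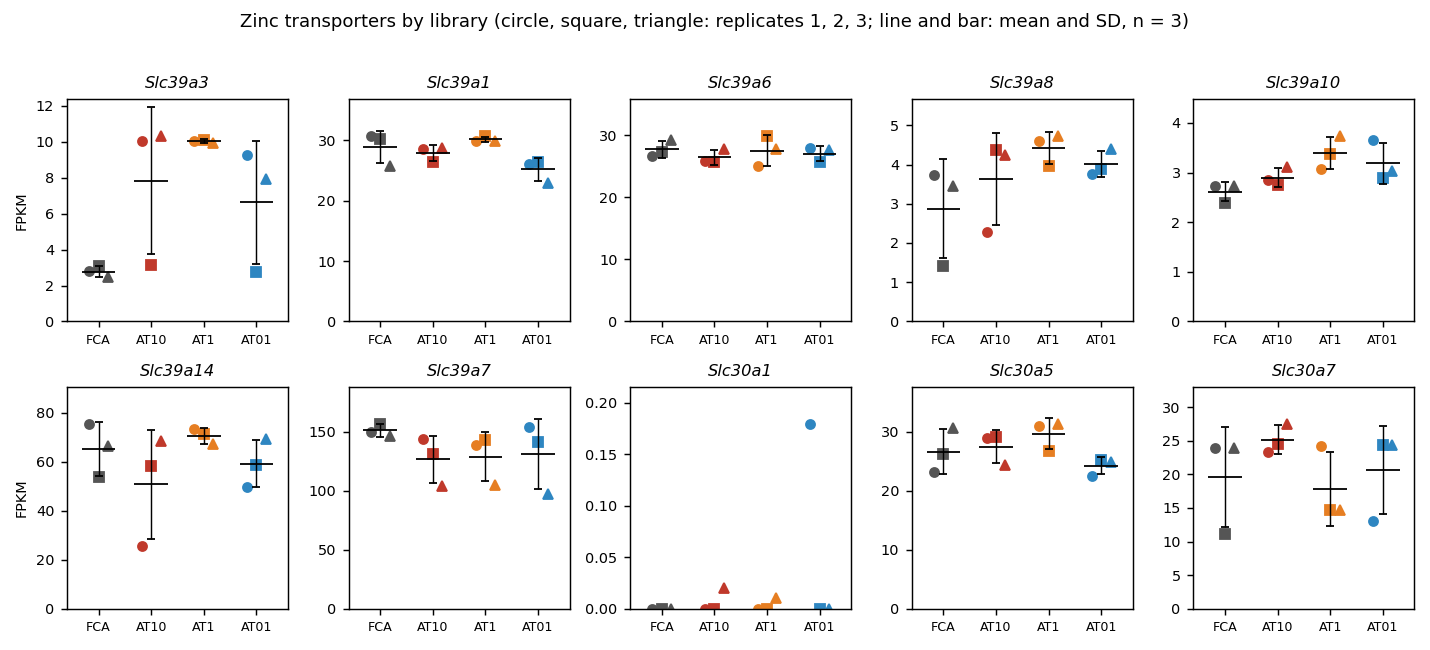
FPKM of the 10 zinc transporters (y axis, from 0) in the 4 groups (x axis), 1 point a library, with the mean and SD of 3 libraries except for Slc30a1, which is listed at 0 in 9 libraries. Slc39a3 lies at 7.91 to 10.3 FPKM in 7 TCDCA libraries and at 2.47 to 3.12 FPKM in the other 5 libraries, and no other panel has this division.

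**Figure D2:**
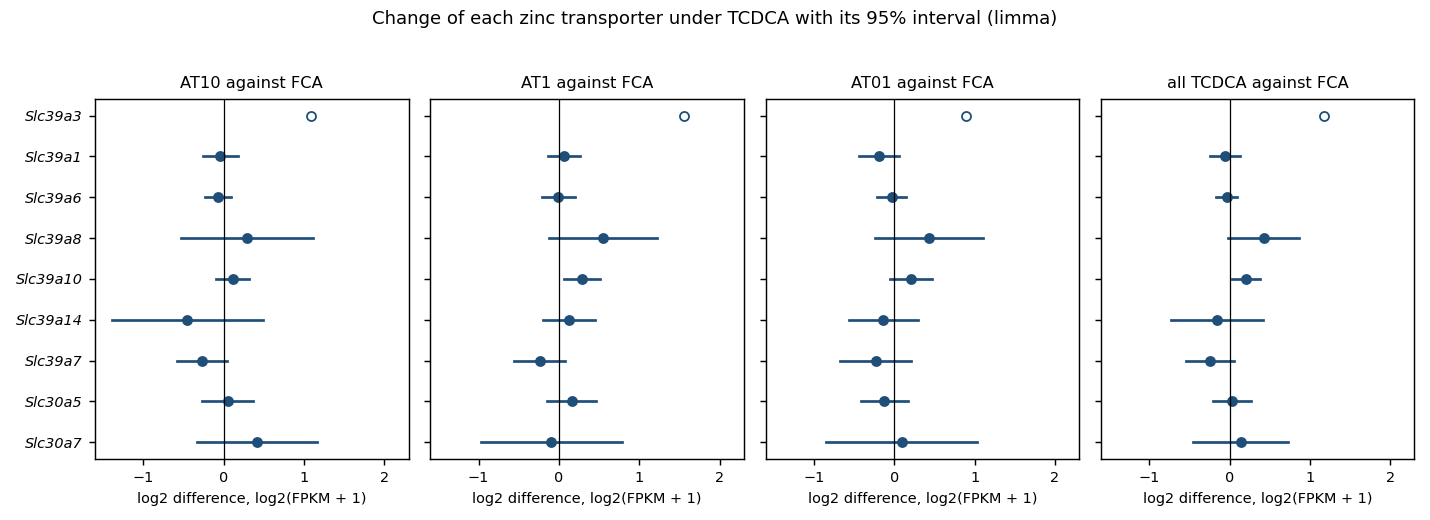
Log2 difference from FCA on log2(FPKM + 1) (x axis) for 9 zinc transporters (y axis) in 4 comparisons, with 95% intervals from limma. Slc39a3 is an open circle without an interval, since it was chosen for these values, and the interval of each other gene includes 0 except for Slc39a10 in AT1 and in all TCDCA libraries.

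Slc39a10 was the only member with each TCDCA library above every FCA library, which held for 8 of the 9 TCDCA libraries of Slc39a3. It encodes ZIP10, a surface importer that can pair with ZIP6. FCA had 2.72, 2.39 and 2.72 FPKM. AT10 had 2.84, 2.74 and 3.11 FPKM, AT1 had 3.08, 3.38 and 3.73 FPKM, and AT01 had 3.66, 2.88 and 3.03 FPKM. The groups did not overlap, although the lowest TCDCA library was above the highest FCA library by only 0.02 FPKM, and 0.956% of all records had every TCDCA library above every FCA library. The log2 difference over the 9 TCDCA libraries was 0.20 (standard error 0.08, 95% interval 0.03 to 0.38, adjusted p = 0.374 from limma), a ratio of 1.15 on FPKM + 1. By dose it was 0.11 at 10 µM (adjusted p = 0.615), 0.28 at 1 µM (adjusted p = 0.428) and 0.21 at 0.1 µM (adjusted p = 0.742). Slc39a10 thus did not pass the adjusted test, although its unadjusted p from limma was 0.0212 at 1 µM and 0.0286 over all TCDCA libraries.

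Slc39a8 encodes ZIP8, a surface importer of zinc, manganese and iron and a target of NF-kB. Its FCA values were 3.74, 1.42 and 3.44 FPKM. AT10 had 2.29, 4.38 and 4.25 FPKM, AT1 had 4.60, 3.96 and 4.72 FPKM, and AT01 had 3.77, 3.88 and 4.39 FPKM. Only AT10 replicate 1 of the 9 TCDCA libraries was not above all FCA libraries. The log2 difference of all TCDCA libraries was 0.42 (standard error 0.20, 95% interval -0.01 to 0.86, adjusted p = 0.427), and without FCA replicate 2 it was 0.12. Every library was above every FCA library for 2 of the 8 genes in AT1 and 2 in AT01, Slc39a8 and Slc39a10 in both, and for Slc39a10 alone in AT10, where 9.87%, 5.97% and 10.7% of all records showed this. None of the 8 was below every FCA library in AT01 (8.06% of all records) or in all TCDCA libraries (1.9%).

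Slc39a14, whose product ZIP14 carries zinc, iron and manganese and is raised by IL-6 in liver, was the most abundant transporter of the cell surface here. It had 75.6, 53.8 and 66.2 FPKM in FCA, and the 9 TCDCA libraries ran from 25.8 through a median of 67.0 to 73.3 FPKM. AT10 replicate 1 held the lowest value, and the next lowest was 49.7 FPKM in AT01 replicate 1. The log2 difference in AT10 was -0.45 (standard error 0.38, adjusted p = 0.645), and it was -0.03 without AT10 replicate 1. In AT1 and AT01 it was 0.12 (adjusted p = 0.702) and -0.14 (adjusted p = 0.864).

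Slc39a1 and Slc39a6 had the steadiest levels among the members tested. Slc39a1, the gene of the surface importer ZIP1, of the same subfamily as ZIP3, ranged from 22.9 to 30.7 FPKM over the 12 libraries, with a mean of 28.9 ± 2.69 FPKM (SD, n = 3) without and 27.8 ± 2.48 FPKM (SD, n = 9) with TCDCA. Its log2 difference was -0.06 (95% interval -0.25 to 0.13, adjusted p = 0.819). Slc39a6, the gene of ZIP6, ranged from 25.0 to 29.8 FPKM, and its log2 difference was -0.04 (95% interval -0.17 to 0.09, adjusted p = 0.82). The SD of log2(FPKM + 1) over the 12 libraries was 0.13 for Slc39a1 and 0.07 for Slc39a6, against 0.77 for Slc39a3 and a median of 0.18 over all records tested.

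Slc39a7 encodes ZIP7, which releases zinc from the endoplasmic reticulum into the cytosol. It had 150, 157 and 146 FPKM in FCA. Replicate 3 of each TCDCA group had 104.5 (AT10), 104.9 (AT1) and 97.6 FPKM (AT01), and the other 6 TCDCA libraries had between 131 and 154 FPKM. All libraries of AT10 and of AT1 were below every FCA library, which held for 9.18% and 10% of all records, whereas AT01 replicate 1 was within the FCA range. The log2 difference was -0.27 at 10 µM (adjusted p = 0.459), -0.24 at 1 µM (adjusted p = 0.502) and -0.23 at 0.1 µM (adjusted p = 0.816). Without replicate 3 of the dose it was -0.14, -0.10 and -0.04 log2 units.

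Among the exporters, Slc30a5 and Slc30a7 encode ZnT5 and ZnT7, which load zinc into the early secretory pathway, where enzymes such as alkaline phosphatase take it up. Slc30a5 ranged from 22.6 to 31.4 FPKM, with a log2 difference of 0.03 (95% interval -0.21 to 0.26, adjusted p = 0.935) over all TCDCA libraries. Slc30a7 had 23.9, 11.1 and 24.0 FPKM in FCA, and 23.4, 24.5 and 27.5 FPKM in AT10. Its AT1 values were 24.2, 14.6 and 14.7 FPKM, and AT01 had 13.1, 24.3 and 24.4 FPKM. Thus 4 libraries, 1 of FCA, 2 of AT1 and 1 of AT01, lay between 11.1 and 14.7 FPKM and the other 8 between 23.4 and 27.5 FPKM, with a gap of 0.64 on the log2 scale. Both levels occurred in FCA, so the division did not follow the treatment, and the log2 difference of all TCDCA libraries was 0.14 (adjusted p = 0.856).

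Slc30a1 encodes ZnT1, the exporter of the cell surface and a known target of MTF1. It was listed at 0 in 9 libraries, all 3 of FCA among them, and at 0.02 FPKM in AT10 replicate 3, 0.01 FPKM in AT1 replicate 3 and 0.18 FPKM in AT01 replicate 1. Its mean was below the 1 FPKM required for testing, and no fold change is given, since a value of 0 in a table without read counts can be a failed estimate.

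By median FPKM over the 12 libraries the order was Slc39a7 (142), Slc39a14 (66.6), Slc39a1 (28.7), Slc39a6 (27.5), Slc30a5 (26.4), Slc30a7 (23.9), Slc39a3 (8.58), Slc39a8 (3.92), Slc39a10 (2.96) and Slc30a1 (0). FPKM is scaled by transcript length, so levels of different genes can be set beside each other, but only roughly. Their records rest on unlike sets of transcripts, and the 0 of Slc30a1 can be a failed estimate. Slc39a7 was above Slc39a14 in all 12 libraries, and Slc30a7 above Slc39a3 in all 12, without overlap of their ranges. The ranges of Slc39a1, Slc39a6 and Slc30a5 overlapped, and their medians differed by ratios of 1.05 and 1.04. Slc39a3 was above Slc39a8 in 8 of 12 libraries, with overlapping ranges. Of the FPKM summed over the 6 importers Slc39a1, Slc39a3, Slc39a6, Slc39a8, Slc39a10 and Slc39a14, Slc39a3 made up 1.9% to 2.59% in FCA, 2.59% to 10.6% in AT10, 6.79% to 6.94% in AT1 and 2.28% to 7.67% in AT01. The sum itself was 118 to 142 FPKM in FCA, 95.3 to 143 FPKM in AT10, 143 to 149 FPKM in AT1 and 120 to 135 FPKM in AT01.

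By a definition set after the values were seen, a record lay at 2 levels where its 12 values of log2(FPKM + 1), put in order, had a step of 1 or more that exceeded the spread within each level, with 2 or more libraries per level. Slc39a3, with a step of 1.11, was the 1 zinc transporter that met this of the 9 with a mean of at least 1 FPKM. Of all records tested, 4.52% did. None of the other 524 records at 2 levels had the same 7 libraries high or low. The Slc39a3 record holds 1 transcript, from Ensembl, as do those of Slc30a5 and Slc30a7, whereas the Slc39a1 record holds 7 transcripts, 6 of them assembled from these reads. The neighbours by StringTie locus number, Sgta (33.7 to 42.3 FPKM) and Gadd45b (24.4 to 36.1 FPKM), stayed at 1 level. For Sgta the mean was 40.3 ± 1.87 FPKM (SD, n = 3) without and 37.0 ± 2.19 FPKM (SD, n = 9) with TCDCA. For Gadd45b it was 25.8 ± 1.65 FPKM without and 29.2 ± 3.13 FPKM with TCDCA. The TCDCA means of the neighbours thus lay on opposite sides of FCA, while for both genes the TCDCA libraries overlapped those of FCA.

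The records most like Slc39a3 by Pearson's correlation of log2(FPKM + 1) over the 12 libraries were Rbl2 (0.91), Chst11 (0.84), Rnf149 (0.81), Rnf217 (0.80) and Ints1 (0.80), and those most opposite were AC130253.1 (-0.93), Atp5sl (-0.88), snopsi28S-3327 (-0.86), Bcl7b (-0.84) and Exosc1 (-0.84). These values describe 12 points that share 4 groups, and Spearman's correlation was lower in size for Rbl2 (0.56) and AC130253.1 (-0.76). Rbl2, a pocket protein of the retinoblastoma family, had 5.56 to 6.28 FPKM in the 7 libraries of high Slc39a3 and 4.36 to 4.93 FPKM in the other 5. AC130253.1 had 0.42 to 0.88 FPKM in those 7 and 3.36 to 9.48 FPKM in the 5, the reverse division without overlap. Among the zinc transporters, the correlation with Slc39a3 was 0.73 for Slc39a10 and between -0.43 and 0.29 for the other 7 tested.

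**Figure D3:**
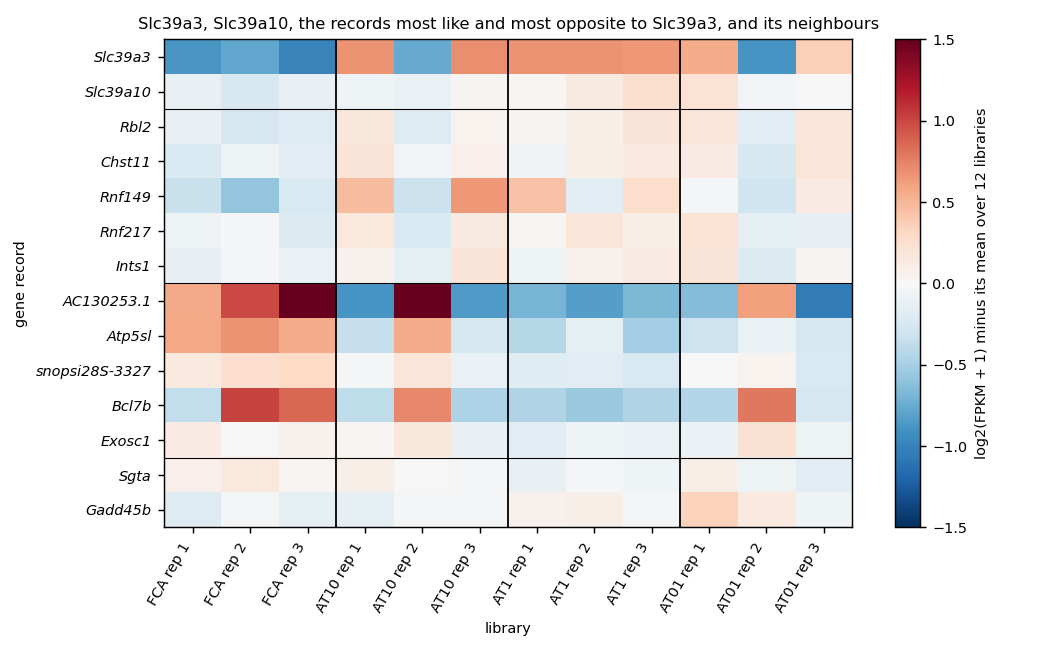
Colour gives log2(FPKM + 1) minus its mean over the 12 libraries (x axis, by group and replicate) for Slc39a3, Slc39a10, the 5 records most like Slc39a3, the 5 most opposite and its neighbours Sgta and Gadd45b (y axis). Slc39a3 is low in all FCA libraries and in replicate 2 of AT10 and AT01, AC130253.1 is high in the same libraries, and the neighbours show little contrast.

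A list of 30 other zinc genes was set beside the transporters: the remaining ZIP and ZnT genes, metallothioneins, Mtf1, matrix enzymes known to follow ZIP8 and MTF1 in cartilage, and zinc enzymes of the secretory pathway. Of these, 23 had a record analysed here and 16 were tested. None had an adjusted p under 0.05 from limma or met the study's threshold in any of the 4 comparisons. At an unadjusted p under 0.05, 1 of the 16 (6.25%) passed in each comparison, where 11.9%, 11%, 6.6% and 12% of all records did. In Ballgown's F test 1, 2, 1 and 1 of the 16 did, where the share of all records was 10.8%, 6.86%, 5.6% and 8.74%. Their median log2 difference was 0.12, 0.08 and 0.03 from the highest to the lowest dose and 0.07 in all TCDCA libraries, against -0.009, 0.016, 0.002 and 0.003 over all records.

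Of these 16 genes, the one of smallest adjusted p in AT10 was Slc30a4, whose product ZnT4 loads zinc into endosomes and vesicles. FCA had 12.6, 13.0 and 12.6 FPKM, while the AT10 libraries reached 16.4, 17.5 and 18.8 FPKM. The log2 difference was 0.43 (standard error 0.07, adjusted p = 0.128). AT1 had 17.2, 10.7 and 18.8 FPKM, and AT01 had 8.35, 13.5 and 2.58 FPKM. The AT10 libraries were thus above all FCA libraries, whereas 2 AT01 libraries held the lowest values. Enpp3, a zinc-dependent ectonucleotidase, had the smallest unadjusted p of the list in AT1 and AT01. It had 3.80 ± 0.163 FPKM (SD, n = 3) in FCA and 4.63 to 4.88 FPKM in AT01, with log2 differences of 0.27 at 1 µM (adjusted p = 0.42) and 0.26 at 0.1 µM (adjusted p = 0.684). Slc39a13, the gene of ZIP13, which serves collagen-producing cells, stayed between 51.4 and 60.1 FPKM, and Slc39a9, the gene of ZIP9, between 11.1 and 16.3 FPKM. In AT10, all Slc39a9 libraries were above and all Slc39a13 libraries below those of FCA, with log2 differences of 0.24 (adjusted p = 0.45) and -0.11 (adjusted p = 0.511). With Slc30a4, 2 of the 16 were thus wholly above FCA in AT10 and 1 wholly below, where 10.7% and 9.18% of all records were.

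The metallothionein Mt2A was the most abundant gene of zinc buffering, with 191, 238 and 169 FPKM in FCA and from 123 through a median of 168 to 203 FPKM under TCDCA. Its log2 difference was -0.30 (standard error 0.17, 95% interval -0.67 to 0.06, adjusted p = 0.487), and the groups overlapped. Mt1, which is counted among the 16 tested, was listed at 0 in 9 libraries and had 78.0 FPKM in FCA replicate 3, 70.4 FPKM in AT1 replicate 2 and 71.8 FPKM in AT01 replicate 1. Mt1 and Mt1m, which RefSeq lists as a pseudogene, have near-identical copies that reads can be split between, so their values are uncertain. Mtf1 had between 0.84 and 1.15 FPKM in 11 libraries and 2.10 FPKM in AT10 replicate 1. The metalloproteinases Mmp3 (412 to 709 FPKM) and Mmp13 (56.3 to 98.5 FPKM) and the aggrecanase Adamts5 (10.6 to 13.5 FPKM) had log2 differences of 0.12 (adjusted p = 0.728), 0.03 (adjusted p = 0.955) and -0.02 (adjusted p = 0.927) over all TCDCA libraries.

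**Figure D4:**
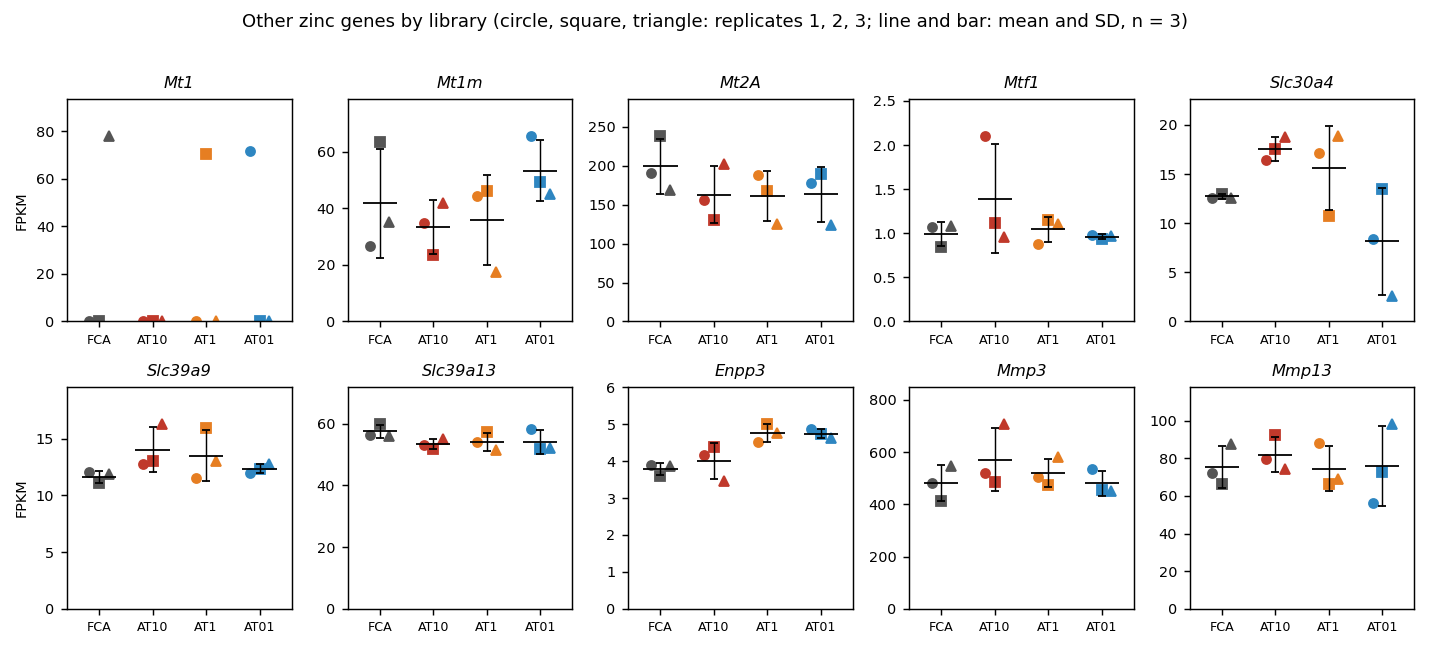
FPKM of 10 other zinc genes (y axis, from 0) in the 4 groups (x axis), 1 point a library, with the mean and SD of 3 libraries except for Mt1, which is listed at 0 in 9 libraries. Slc30a4 is above FCA in all AT10 libraries and spread widely in AT01, and Mt2A, Mmp3 and Mmp13 overlap between FCA and every TCDCA group.

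MTF1 binds metal response elements, whose core was searched for as TGCACNC and TGCGCNC on both strands in promoter windows of RefSeq (GRCr8, 250 bases before to 50 after the start of transcription). The build of the FPKM records is not given in the sources used here, and the windows were matched by symbol alone. Of 33469 windows, 24.2% held a match. Of the 10 transporters, 8 had a window and 4 of these a match, with 4 matches for Slc39a7, 2 for Slc30a1, 2 for Slc30a5 and 1 for Slc39a1. The windows of Slc39a3 and of Slc39a10, the transporter most like it, are shown beside those of Slc30a1 and Mt2A, which are known targets of MTF1, with matches in capitals, and a match describes letters only.
Slc39a3, chr7:9327291-9327590, plus strand: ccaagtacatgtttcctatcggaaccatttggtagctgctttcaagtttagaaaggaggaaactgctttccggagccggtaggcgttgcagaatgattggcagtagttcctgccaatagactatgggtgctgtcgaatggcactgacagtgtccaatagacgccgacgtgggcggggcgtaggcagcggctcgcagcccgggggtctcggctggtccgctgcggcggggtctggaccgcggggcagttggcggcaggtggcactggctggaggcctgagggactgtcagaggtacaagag
Slc39a10, chr9:62405183-62405482, plus strand: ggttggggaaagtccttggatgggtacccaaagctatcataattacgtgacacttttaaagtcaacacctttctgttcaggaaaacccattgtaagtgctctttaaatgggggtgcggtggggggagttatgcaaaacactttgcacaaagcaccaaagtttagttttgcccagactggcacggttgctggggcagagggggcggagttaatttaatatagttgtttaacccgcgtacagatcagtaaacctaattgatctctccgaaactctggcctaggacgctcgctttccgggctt
Slc30a1, chr13:106021769-106022068, plus strand: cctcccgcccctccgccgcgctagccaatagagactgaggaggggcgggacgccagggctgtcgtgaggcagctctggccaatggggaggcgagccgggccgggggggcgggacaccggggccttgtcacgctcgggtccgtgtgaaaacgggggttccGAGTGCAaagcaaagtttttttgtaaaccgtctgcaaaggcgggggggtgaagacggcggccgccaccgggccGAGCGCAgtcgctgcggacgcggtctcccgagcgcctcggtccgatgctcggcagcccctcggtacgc
Mt2A, chr19:10838659-10838958, minus strand: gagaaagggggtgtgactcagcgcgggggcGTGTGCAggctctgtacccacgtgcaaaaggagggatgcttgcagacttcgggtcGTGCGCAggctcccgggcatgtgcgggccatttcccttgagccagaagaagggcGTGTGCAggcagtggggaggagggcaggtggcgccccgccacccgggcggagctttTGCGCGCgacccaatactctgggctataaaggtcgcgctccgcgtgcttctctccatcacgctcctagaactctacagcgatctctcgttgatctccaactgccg
The letters of the core are in neither the Slc39a3 nor the Slc39a10 window, and occur at 2 positions in that of Slc30a1 and 4 in that of Mt2A.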

How the data were processed

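Poly(A) RNA of 12 libraries in 4 groups of 3 was analysed. The authors trimmed reads with cutadapt, aligned them with HISAT2 and computed FPKM with StringTie and Ballgown, and the deposited values are FPKM to 2 decimals, 1 column a library. The genome build and any scaling between libraries are not given in the sources used here. FPKM hides the read number behind a value, so low genes such as Slc39a3 carry an unknown counting error.

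Values were taken as log2(FPKM + 1), which understates changes of low genes. Records averaging 1 FPKM or more (11611) were fitted with limma 3.58.1 in R 4.3.3 (eBayes with a trend), on the groups of each comparison, with Benjamini-Hochberg adjustment over all records. Members and gene lists were chosen with earlier results of these data known, as was the definition of 2 levels. Named genes were the members, the list of other zinc genes, the 5 records most like and the 5 most opposite to Slc39a3, and its neighbours by locus number. The fit was first tested on simulated data, in which 200 records were moved by 2 log2 units. Of these, 88.5%, 90%, 87% and 93% were called in AT10, AT1, AT01 and all TCDCA libraries. Of the unmoved records, 9, 8, 12 and 12 were called. Smaller changes, such as those of Slc39a3, were not simulated. Python 3.11.15, pandas 2.3.3 and Matplotlib 3.10.9 served for summaries and plots. Alternatives were another pseudocount, no filter, median-of-ratios scaling, FPKM summed by name, Ballgown's F test with a term for library level, 1 fit of all groups, a replicate block and each library left out.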

Additional observations from a re-analysis of the deposited data

Results flagged for a closer look

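Among the 9 TCDCA libraries, 25 zinc genes were screened for a library that stood apart from the rest by Dixon's criterion, which chance meets in about 5% of groups, and 5 genes had one. AT10 replicate 1 was the library in 3 of them, with 2.29 FPKM of Slc39a8 (next lowest 3.77), 25.75 FPKM of Slc39a14 (next lowest 49.7) and 2.10 FPKM of Mtf1 (next highest 1.15). Slc30a6 had 8.04 FPKM in AT01 replicate 3 (next lowest 10.1), and Mmp3 had 708.8 FPKM in AT10 replicate 3 (next highest 579.5). In each of the 5, the other libraries of the same dose lay within the range of the rest, as with Slc39a14 at 58.1 and 68.5 FPKM in AT10.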

How the results depend on the processing

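For the 8 transporters other than Slc39a3, 32 values (8 genes, 4 comparisons) were recomputed under the alternatives, which gave 464 alternative values. None of these reached an adjusted p under 0.05, the smallest being 0.281. All 224 values under settings other than a left-out library kept their direction, and of the 240 with a library left out, 19 did not, all for differences of at most 0.29 log2 units. Their ranges with each library left out were, in AT10, -0.12 to 0.00 for Slc39a1, -0.018 to 0.52 for Slc39a8 and -0.046 to 0.148 for Slc30a5. In AT1 they were -0.012 to 0.108 for Slc39a1, -0.07 to 0.053 for Slc39a6, -0.006 to 0.236 for Slc39a14 and -0.442 to 0.082 for Slc30a7. In AT01 they were -0.063 to 0.001 for Slc39a6 and -0.257 to 0.374 for Slc30a7, and in all TCDCA libraries -0.067 to 0.127 for Slc30a5 and -0.211 to 0.313 for Slc30a7. Under the study's threshold, the count of other zinc genes in AT01 ranged from 0 to 1 with a library left out. The gene was Slc30a4, with a log2 difference of -1.25 without AT01 replicate 2 (adjusted p = 0.861 from limma). With that library it was -0.80 (adjusted p = 0.793 from limma). The 10 records named as most like or most opposite to Slc39a3 depended on the measure, with 1 kept under Spearman's correlation and 1 over the 9 TCDCA libraries.

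Libraries of the same replicate number did not deviate together (correlations from -0.105 to 0.0942 over 18 pairs, with 3 of 12 libraries closest to their own number), and the sources do not say that a number marks a shared animal, batch or day, so the numbers were not taken to pair the samples. With the replicate number as a block, 1, 0, 2 and 1 records had an adjusted p under 0.05 in AT10, AT1, AT01 and all TCDCA libraries, against 20, 11, 11 and 3 without it, and 0 of the 8 transporters did in either. The paper lists the reads of each library, but the read number behind a single value is unknown. With 3 libraries a group, the 95% intervals of Slc39a8, Slc39a14 and Slc30a7 in AT10 reach past 1 log2 unit.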

Other observations

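Several zinc genes were below the level at which records were tested. Slc39a4, the intestinal importer, had at most 0.07 FPKM, Slc30a3, the exporter of synaptic vesicles, at most 0.12 FPKM, and Tmem163 at most 0.11 FPKM in any library. Alpl, tissue-nonspecific alkaline phosphatase, had 0.33 to 0.46 FPKM, and Mmp12, a metalloproteinase of macrophages, 0.10 to 0.56 FPKM. A second record named Adamts5 was listed at 0 in 11 libraries and had 3.02 FPKM in AT1 replicate 3, and a second record named Slc39a1 had 0.15 FPKM in AT10 replicate 1 and was listed at 0 elsewhere. A second Mmp3 record had a mean of 113 FPKM.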
